A study of Homo sapiens with 4 samples.

Results

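This account describes SCD5, a stearoyl-CoA desaturase, together with 9 other genes of fatty acid synthesis, desaturation and elongation in GIST-T1 cells 48 h after transfection with a miR-335 mimic. The members were the desaturases SCD, SCD5, FADS1 and FADS2, the elongases ELOVL1, ELOVL5 and ELOVL6, and the synthesis enzymes ACLY, ACACA and FASN. Their probes were found by the gene name in the array files, which gave 10 of the 36337 gene names on the array and 17 of the 50599 probes that are not controls, 4 of them for SCD5. SCD5 was chosen by its low signal with the mimic in this same comparison, so its values are given as a description with no test. The other 9 genes were named as the pathway around it, with earlier results of these arrays known.

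GIST-T1 is an established line of gastrointestinal stromal tumor, a sarcoma driven in most cases by the receptor tyrosine kinase KIT. All cells were grown in the same serum-containing medium and received 100 pmol of RNA by nucleofection, either a miR-335 mirVana mimic, which is a double-stranded RNA that stands in for the mature microRNA, or mirVana Negative Control #1. Each treatment was measured on 2 one-color arrays from 100 ng of total RNA, and all 4 arrays lay on 1 slide. The labels do not say whether the 2 replicates of a treatment came from separate cultures, so every p-value below measures only the spread between these samples, which may be technical. One line of the mimic samples' labels names miR-34a, while their titles, the transfection entry, the protocol and the series title all name miR-335; the samples are treated here as the miR-335 mimic. Gene expression arrays of this kind do not measure mature microRNA, and the levels of its targets were not used here to check the label.

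Fatty acid synthesis starts in the cytosol, where ACLY splits citrate into acetyl-CoA, ACACA carboxylates acetyl-CoA to malonyl-CoA, and FASN joins these units into palmitate. In the endoplasmic reticulum, elongases of the ELOVL family lengthen the chains and desaturases insert double bonds: SCD and SCD5 make oleate and palmitoleate from saturated chains, whereas FADS1 and FADS2 act on polyunsaturated chains. SCD is the widely expressed stearoyl-CoA desaturase in humans. SCD5 is a second one, without a counterpart in rodents and best known from brain and pancreas.

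The mature strands of the miR-335 hairpin, from RefSeq on GRCh38.p14, are shown because they define what was put into the cells. The labels do not say which strand the mimic delivers, so both are given. The seed, bases 2 to 8, is in capitals.
hsa-miR-335-5p: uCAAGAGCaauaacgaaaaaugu
hsa-miR-335-3p: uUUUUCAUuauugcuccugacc
The 5p strand lies at chr7:130496126-130496148 on the plus strand and the 3p strand at chr7:130496162-130496183, on the same strand.

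Array probes are 60-base DNA sequences. The probe nearest the 5′ end of SCD5 is printed because its difference, of the same sign, is much smaller than that of the 3′ probe. That 3′ probe led to the choice of this gene. The upstream probe of ACACA is printed because it differs in sign from the downstream one. Neither has a base marked in capitals.
SCD5 5′ probe: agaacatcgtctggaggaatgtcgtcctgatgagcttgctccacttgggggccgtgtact
ACACA upstream probe: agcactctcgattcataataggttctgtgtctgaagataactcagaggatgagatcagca
The SCD5 5′ probe lies at chr4:83719504-83719563 on the minus strand of hg19, the build of the array annotation, and the ACACA upstream probe at chr17:35687237-35687296 on the minus strand. Exon and untranslated region boundaries of hg19 were not used here.

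The letters of the probes were searched for the DNA complement of the miR-335-5p seed. GCTCTTG, the match to bases 2 to 8, occurred in 0 of the 17 member probes and in 0.437% of all 50599 probes. The longer GCTCTTGA was in 0 member probes and 0.0988% of all probes. Likewise CTCTTGA was in 0 member probes and 0.464% of all probes, and the 6-base CTCTTG in 0 and 1.92%. GCTCTTGA contains each of the other 3 words, and GCTCTTG and CTCTTGA both contain CTCTTG. The word ATGAAAA, the match to the miR-335-3p seed, was in 0 of the 17 and in 1.22% of all probes. The match to the miR-34a-5p seed, CACTGCC, was in 0 of the 17 and in 0.435%. Probes were searched on the sense strand, and 60 bases are a small window of each transcript, so these counts say nothing about the rest of it.

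Signal is given throughout as the log2 of the processed spot intensity minus that of the array's 75th percentile, so 0 marks the 75th percentile of the probes on that array. The 75th percentile stood at intensities of 178.8 to 189.7. Between 40.3% and 41.9% of probes were well above background, no spot was saturated, and the median absolute difference between replicates was 0.06 in both groups. Of the markers of stromal tumor and interstitial cells of Cajal, KIT, ANO1, ETV1, PRKCQ and CD34 were all detected. Of the 13 probes of that list 0 passed the threshold for a change, beside 1.15% (lower) and 1.47% (higher) of all tested probes. Both mimic arrays were below both controls for 8 of them, beside 32.5%, and above for 1, beside 27.1%. The differences, mimic minus control, ran from -0.33 for a KIT probe to 0.47 for an ANO1 probe (limma adjusted p of 0.0512 and 0.0533). The 7 endothelial probes and those of PTPRC, ADIPOQ, ALB, MYH11 and CDH1 were not above background on enough arrays to be tested.

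The SCD5 probe for transcript variant 1, which lies at chr4:83551061-83551120, carried the low signal. Its log2 signal was -1.02 and -1.30 on the mimic arrays and 0.28 and 0.49 on the control arrays, from intensities of 93.4 and 74.2 against 217.1 and 254.4. Both mimic arrays lay far below both control arrays, and the groups did not overlap. The group means were -1.16 ± 0.20 with the mimic and 0.38 ± 0.15 with the control (SD, n = 2), a log2 difference of -1.54, or 34.3% of the control level. Among the 19352 tested probes well above background on all 4 arrays, this was the third lowest difference. Background correction with normexp, with an offset of 50 added to the intensities, in place of the scanner software's own gave -0.97. Such an offset by itself shrinks the log2 difference of a probe as dim as this one. In bulk RNA, fewer cells with the transcript and less transcript per cell cannot be told apart.

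The 5′ SCD5 probe, whose sequence is printed above, is annotated to transcript variant 2. It read -2.77 and -2.60 with the mimic and -2.52 and -2.42 with the control. The mimic arrays were again the lower pair, by a narrow margin, and the difference of -0.21 left 86.5% of the control level. Its intensities of 27.9 to 33.9 sat just over the dimmest probes called well above background, which had 19.9 to 24.0 on the 4 arrays.

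The other SCD5 probes lie between these, at chr4:83582046-83582105 and chr4:83581608-83581667, and both are annotated to variant 2. The first was well above background on mimic replicate 1 alone, with intensities of 29.1 and 5.1 with the mimic and 4.9 and 4.1 with the control. A single array thus held the only clear signal, and its own replicate did not share it. The second was at 4.8 and 5.3 against 5.0 and 9.5 and was not well above background on any array. Neither was tested, and no fold is given for either. The 4 probes span the gene from 5′ to 3′ with gaps of 137.5, 0.4 and 30.5 kb, and RefSeq lists 2 transcripts for SCD5. The probes with readable signal therefore gave unlike differences at opposite ends of the gene, -1.54 at the 3′ end of variant 1 and -0.21 at the 5′ end. What sets them apart was not tested, and the 5′ probe is also the dimmer one.

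**Figure D1:**
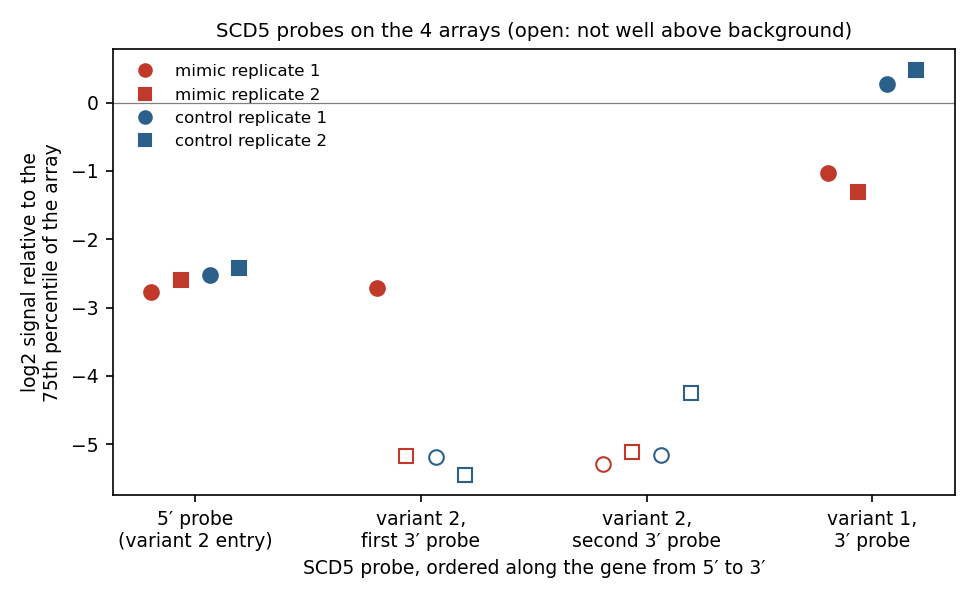
The 4 SCD5 probes, ordered along the gene from 5′ to 3′ (x axis), with log2 signal, where 0 is the array's 75th percentile (y axis). Each point is 1 array, red for the mimic and blue for the control, and open symbols were not well above background; the variant 1 probe shows the 2 mimic arrays at -1.02 and -1.30, below the control arrays at 0.28 and 0.49.

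The pattern of the variant 1 probe over the 4 arrays was compared with those of 18716 probes of genes outside the lists. The likeness was the Euclidean distance between the 4 centred log2 values. RNF141, a RING finger protein, was among the 3 nearest, at a distance of 0.43. It read 2.31 and 2.37 with the mimic and 3.64 and 3.55 with the control, a difference of -1.25. With 2 arrays a group, such a distance mainly ranks probes by the size of the same difference.

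None of the other 9 members matched this size. All 4 arrays detected each of their 13 probes, which were tested with limma, with p-values adjusted over the 20328 tested probes of the array. The count called lower was 0, beside 1.15% of all tested probes, and the count called higher was 0, beside 1.47%. At an unadjusted limma p under 0.05 there were 4, beside 25.3% of all tested probes. The methods' t-test gave 3 unadjusted, beside 20.2% of all tested probes, and 0 adjusted, where it gave 0 over the whole array too. These shares of the 13 lie near those of the whole array. Both mimic arrays were below both control arrays for 8 of the 13 probes, beside 32.5% of all tested probes, and above them for 2, beside 27.1%. Their differences ran from -0.29 to 0.14 with a median of -0.07, beside -0.01 over all tested probes.

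SCD, the main human stearoyl-CoA desaturase and the closest relative of SCD5 among the members, has 1 probe, at chr10:102123917-102123976. It read -0.20 and -0.15 with the mimic and -0.05 and 0.02 with the control. The mimic pair was lower without overlap, but by a small step. The difference was -0.16 ± 0.05 (SE), or 89.5% of control, with a limma adjusted p of 0.163 and a 95% interval of -0.30 to -0.02.

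FADS1, the delta-5 desaturase of polyunsaturated fatty acids, was measured at chr11:61567126-61567185. The signals were -0.45 and -0.28 with the mimic and 0.01 and -0.16 with the control. Again the mimic pair was lower, and the replicates of each group lay further apart than the nearest arrays of the 2 groups. The difference of -0.29 ± 0.10 was the lowest among the 9 genes, and its limma adjusted p was 0.187 with a 95% interval of -0.57 to -0.01.

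FADS2, the delta-6 desaturase that acts before FADS1 and lies beside it on the chromosome, had the smallest p-value among these genes. Its main probe, at chr11:61634754-61634813, read 3.55 and 3.54 with the mimic and 3.71 and 3.74 with the control. The replicates were nearly equal and the groups separate. The difference was -0.19 ± 0.04, or 87.9% of control, and the limma adjusted p of 0.103 missed the threshold (95% interval -0.29 to -0.08). A moderated fit with an intensity trend brought it to 0.00726, in a setting that called 8.54% of all tested probes lower. The second FADS2 probe, at chr11:61593923-61593982, matches another transcript. It read -2.70 and -2.14 against -2.34 and -2.62, so the groups overlapped, and its difference of 0.06 changed sign when mimic replicate 2 was left out (-0.22) or control replicate 2 (-0.07), and with spike-in scaling (-0.12).

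**Figure D2:**
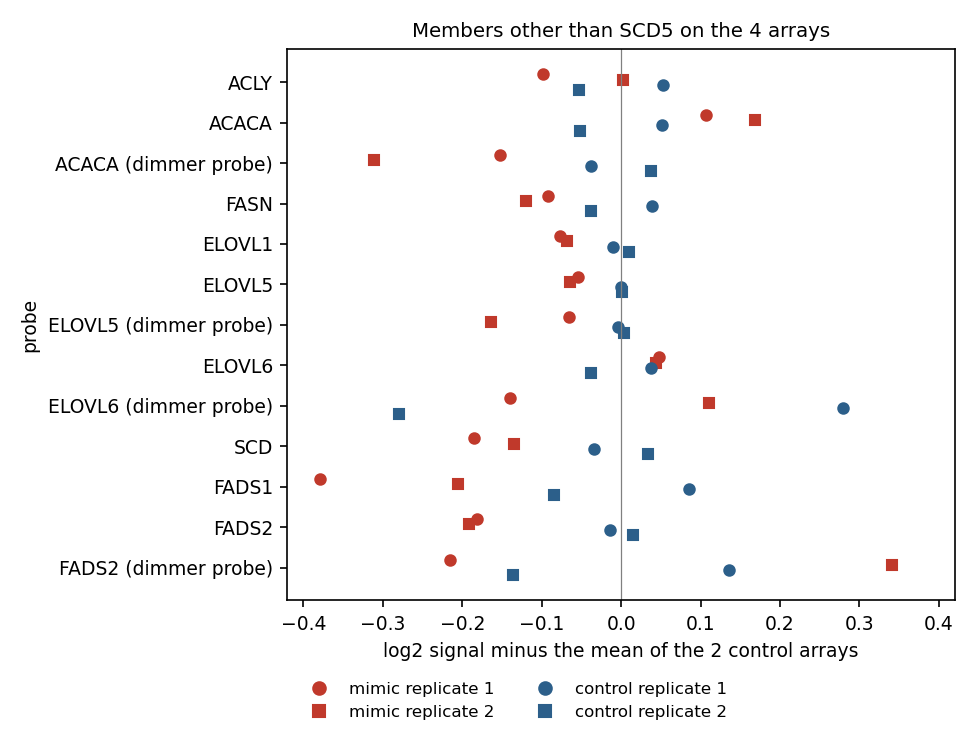
The 13 probes of the members other than SCD5 (y axis) with each array's log2 signal minus the mean of the 2 control arrays (x axis). Each point is 1 array, red for the mimic and blue for the control, circles for replicate 1 and squares for replicate 2; the red points lie left of both blue points for 8 probes, and none of the 13 passed the limma threshold.

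The elongases differed less. ELOVL1, which lengthens saturated and monounsaturated very long chains, read 2.57 and 2.58 with the mimic and 2.63 and 2.65 with the control at chr1:43829737-43829796. This step of -0.07 was larger than either gap between replicates, yet the limma adjusted p was 0.315 (95% interval -0.18 to 0.03). ELOVL5, which lengthens polyunsaturated chains, has 2 probes. At chr6:53132886-53132945 the signals were 2.50 and 2.49 against 2.56 and 2.56, a difference of -0.06 with an adjusted p of 0.378. At chr6:53159111-53159170, a probe for variant 4, they were 1.84 and 1.74 against 1.90 and 1.91, a difference of -0.11 with an adjusted p of 0.271. Both ELOVL5 probes thus had the mimic arrays lower, without passing the test.

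ELOVL6 takes palmitate to stearate, the substrate of SCD and SCD5. Its probe at chr4:110971171-110971230 read 1.83 and 1.83 with the mimic and 1.82 and 1.75 with the control. The mimic arrays were above the controls by less than the gap between the control replicates. The difference was 0.05 with a limma adjusted p of 0.571, and it changed sign with normexp (-0.01) and with spike-in scaling (-0.14). The second probe, at chr4:110967426-110967485, read -2.47 and -2.22 against -2.05 and -2.61. Those groups overlapped, and the difference was -0.01 with an adjusted p of 0.975 and a 95% interval of -0.68 to 0.65.

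FASN, the multienzyme that builds palmitate, read 3.94 and 3.91 with the mimic and 4.07 and 3.99 with the control at chr17:80036216-80036275. The mimic pair was lower, with a difference of -0.11, a limma adjusted p of 0.27 and a 95% interval of -0.24 to 0.03. ACLY, at chr17:40023968-40024027, read 1.70 and 1.80 against 1.85 and 1.75. The groups overlapped, and the difference of -0.05 (adjusted p of 0.674) was 0.00 or just above it when mimic replicate 1 or control replicate 1 was left out.

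ACACA, the committed step to malonyl-CoA, gave opposite signs at its 2 probes, which are 245.3 kb apart. The downstream probe, at chr17:35441933-35441992 and base 10597 of the transcript, read 1.63 and 1.69 with the mimic and 1.57 and 1.47 with the control. The upstream probe, printed above and at base 1341, read -0.51 and -0.67 against -0.40 and -0.32. In neither did the groups overlap, but the mimic arrays were higher downstream and lower upstream. The differences were 0.14 ± 0.06 and -0.23 ± 0.07, with limma adjusted p-values of 0.249 and 0.179, so neither passed the test. With spike-in scaling the downstream probe was also below 0, at -0.05.

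**Figure D3:**
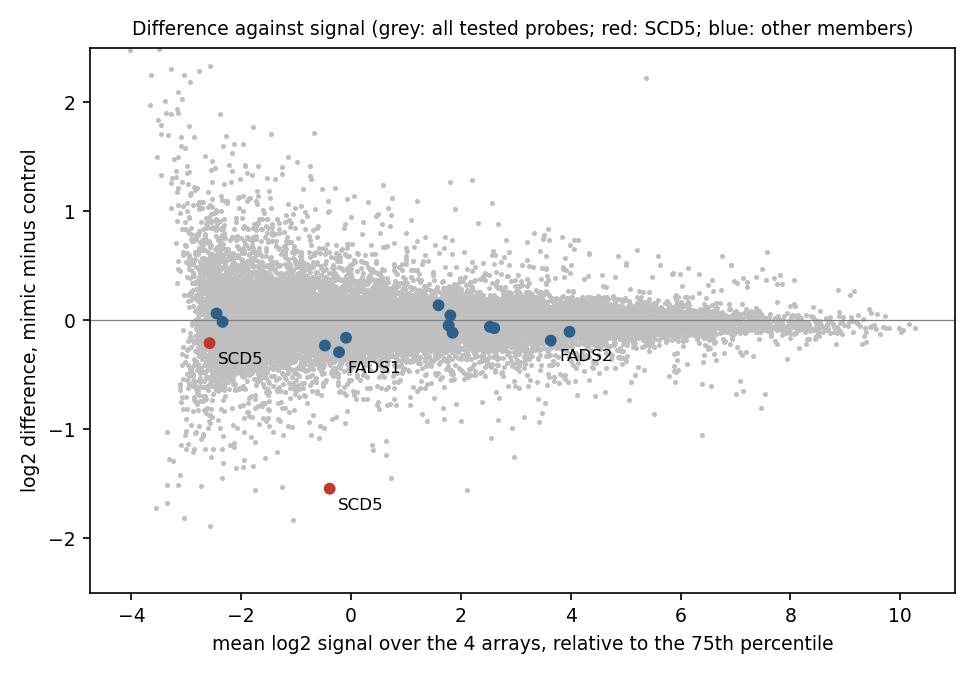
Log2 difference, mimic minus control (y axis), against the mean log2 signal over the 4 arrays (x axis) for the 20328 tested probes in grey, SCD5 in red and the other members in blue; 24 probes lie beyond the axis limits of 2.5 in either direction. The SCD5 variant 1 probe at -1.54 lies below most grey points of like signal, while the other members lie within the grey cloud.

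Scaling mattered to the direction of these small differences. Scaling to the external spike-in RNA moved the median of all tested probes from -0.01 to -0.20. Under that scaling 9 of the 13 member probes were called lower, as were 44.3% of all tested probes. Relative to the shifted median, SCD5 variant 1 stood at -1.53, FADS1 at -0.28, FADS2 at -0.17, SCD at -0.15, FASN at -0.09 and the 2 ACACA probes at 0.15 and -0.22.

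The pathway around the members was read from 6 lists with 55 genes, of which 51 had a probe. Of their 69 probes 54 were tested, in 43 genes. In this wider pathway 1 probe was called lower, beside 1.15% of all tested probes, and 0 were called higher, beside 1.47%; 15 had an unadjusted limma p under 0.05, beside 25.3%, so the share of the 54 was near that of the whole array. The median difference of the 54 was -0.02. Both mimic arrays lay below both controls for 22 probes and above them for 14, beside 32.5% and 27.1% of all tested probes. The same whole-array shares belong beside the counts of each list below.

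Acyl-CoA synthetases and carriers, which activate and bind free fatty acids, held the one called probe. Both mimic arrays were below both controls for 7 of the 8 tested probes of this list, beside 32.5% of all tested probes. The median difference of the 8 was -0.24, and they stand for only 6 genes. FABP5, a cytosolic carrier of fatty acids, has 3 of these probes. The called one read 5.91 and 5.92 with the mimic and 6.35 and 6.29 with the control. Its replicates were close and the groups well apart, with a difference of -0.40 ± 0.04 and a limma adjusted p of 0.0462. The other FABP5 probes differed by -0.36 and -0.29, with adjusted p-values of 0.0706 and 0.06. FABP5 has near-identical copies elsewhere in the genome that these probes may also bind, so its identity here is uncertain. Leaving out any 1 array moved the difference of the called probe only between -0.43 and -0.37. Its call was lost each time, but such a fit has 1 array in a group. That loss cannot be told apart from the smaller number of arrays.

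ACSL4, the synthetase that prefers arachidonate, read -0.53 and -0.67 with the mimic and -0.19 and -0.04 with the control. The mimic arrays were lower without overlap. Its difference of -0.48 ± 0.09 was the lowest of the 54 probes, and the limma adjusted p was 0.0881.

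Substrate supply, the genes for citrate, acetyl-CoA, malonyl-CoA and NADPH, had 11 tested probes with 0 called, 4 below and 3 above the controls, and a median of -0.02. ACACB, the carboxylase at the mitochondrial membrane, had the highest difference among the 54 tested probes. Its dimmer probe read -2.14 and -1.83 with the mimic and -2.28 and -2.37 with the control. That difference was 0.34 with a limma adjusted p of 0.211, whereas the brighter ACACB probe differed by -0.10 with overlapping groups (adjusted p of 0.472). Leaving out 1 array moved the first from 0.19, without mimic replicate 2, to 0.49, without mimic replicate 1, and the second from -0.20, without control replicate 2, to -0.01, without control replicate 1. The probes of this gene thus gave no common direction.

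The list of other elongases and the enzymes that complete the elongation cycle had 9 tested probes, 0 called, with a median of -0.06. ELOVL2, an elongase of long polyunsaturated chains, read -1.17 and -1.08 with the mimic and -1.24 and -1.57 with the control. The groups were separate but the control replicates were far apart, and the difference of 0.28 had a limma adjusted p of 0.292. Without control replicate 1 it was 0.45, and without control replicate 2 it was 0.11. Mitochondrial fatty acid synthesis, a separate pathway that makes the lipoate precursor, had 6 tested probes, 0 called and a median of 0.03.

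The list of desaturase partners holds genes that carry electrons to SCD, SCD5, FADS1 and FADS2, and also FADS3 and FADS6. Of its 7 tested probes, 1 of them for FADS3, 0 were called, 2 were below and 3 above the controls. The median was 0.02. The 2 below were both for CYB5R3, the reductase of cytochrome b5, named here after its values were seen. The brighter CYB5R3 probe read 6.90 and 6.91 with the mimic and 7.13 and 7.17 with the control. It differed by -0.24 ± 0.04 with a limma adjusted p of 0.0756, and the other by -0.20 ± 0.04 with 0.109.

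The transcriptional regulators of lipid synthesis had 13 tested probes, 0 called, 3 below and 3 above the controls, with a median of -0.00. SREBF1, the regulator of lipogenic genes, was also named after its values were seen. The 3 probes above the controls belong to other genes, so SREBF1 does not stand for the list. Its 2 probes read 0.46 and 0.48 against 0.71 and 0.72, and 4.22 and 4.21 against 4.34 and 4.40. In both the mimic arrays were lower with close replicates, by -0.24 ± 0.04 and -0.16 ± 0.04. The limma adjusted p-values were 0.072 and 0.145.

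**Figure D4:**
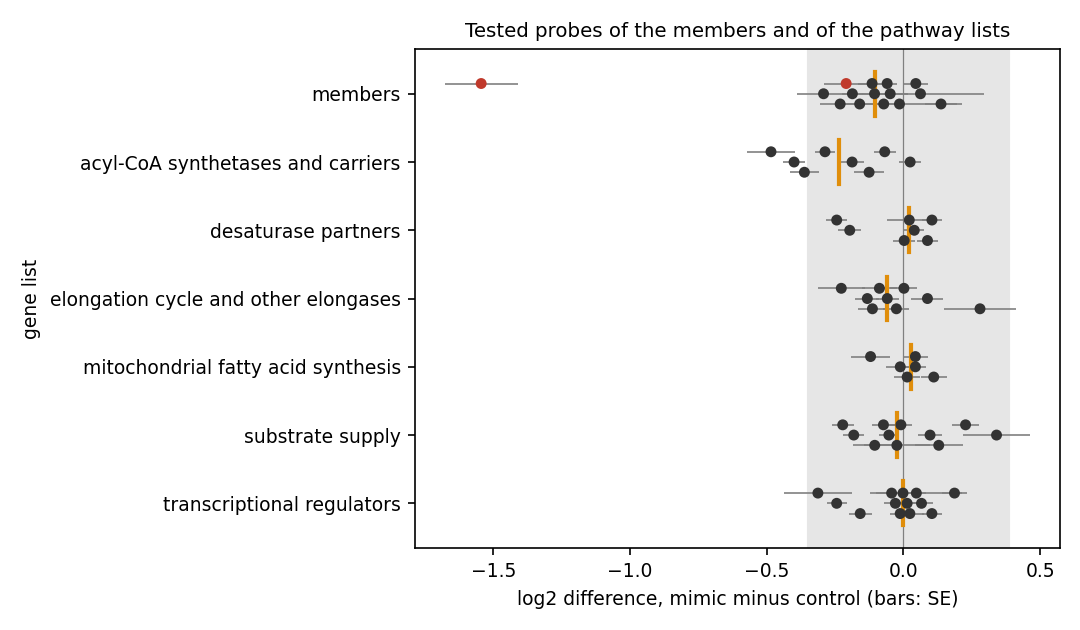
Log2 difference, mimic minus control, with its SE (x axis) for the tested probes of the members and of the 6 pathway lists (y axis), with SCD5 in red. Orange bars are medians and the grey band runs from the 5th to the 95th percentile of all tested probes, -0.35 to 0.39; apart from SCD5 variant 1, the members lie inside this band, and ACSL4 and 2 FABP5 probes lie to its left.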

How the data were processed

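Scanner files of 4 Agilent one-color arrays were used, 2 for the miR-335 mimic and 2 for the negative control. Per the file headers, the authors' software Feature Extraction 10.7.3.1 (10.7 in the submitters' processing notes) gave background-subtracted intensity values on hg19 annotation. The deposited series table holds the same intensity values within 0.5%. Outlier spots (356 to 395 per array) were left out, spots of a probe were averaged, and log2 intensity was taken minus the array's 75th percentile. A probe was tested (20328 in all) if 1 group or the other had it well above background on each of its arrays and all 4 gave a value; the test was limma 3.58.1 in R 4.3.3 with Benjamini-Hochberg adjustment at 0.05. The number of arrays limits the precision. The fit was first tested on simulated data.

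The members and lists were chosen with earlier results of these data known. Named were all members, each called pathway gene, the 2 largest pathway differences in each direction, and the 3 genes nearest to SCD5, of which 2 are not reported here. CYB5R3 and SREBF1 were added after their values were seen. For the replicate numbers, the correlation of replicate differences between groups was 0.03, which gives no pairing. Of the columns of per-sample values, 0 were left unmapped. Gene symbols of 10 of 10 members matched RefSeq. Other normalizations, filters, variance models and the methods' t-test were tried.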

Additional observations from a re-analysis of the deposited data

How the results depend on the processing

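The log2 difference of the SCD5 variant 1 probe was -0.97 with normexp background correction (offset of 50) and -1.73 with spike-in scaling. It was -1.68 to -1.41 when 1 array was left out. It kept its direction under the 10 alternatives run, but SCD5 was chosen by this difference. As its groups did not overlap, leaving out 1 array could not reverse the sign, so the kept direction is no separate support. The count of other member probes called lower was 0 in the reported setting. It was 9 with spike-in scaling, 1 with an intensity trend in eBayes and 3 by the methods' unadjusted t-test. Of the pathway probes, 1 was called lower as reported. The count was 6 with normexp, 31 with spike-in scaling, 11 with the trend and 11 by the unadjusted t-test. It was 0 without a signal filter, with a filter on at least 1 array, with the replicate block and by the adjusted t-test. In each of those settings 0 probes of the whole array were called. The call was also lost whenever 1 array was left out, as given above for FABP5, and there the whole array was not always without calls. For pathway probes called higher, 0 became 1 with the trend and 5 by the unadjusted t-test. Signs reversed for the ACACA downstream probe with spike-in scaling (-0.0489), for the brighter ELOVL6 probe with normexp (-0.0121) and spike-in scaling (-0.14), for the dimmer ELOVL6 probe with normexp (0.0276) and the median of detected probes (0.0063), and for the second FADS2 probe with spike-in scaling (-0.12). Leaving out 1 array gave -0.10 to 0.0045 for ACLY, -0.29 to 0.26 for the dimmer ELOVL6 probe and -0.22 to 0.34 for the second FADS2 probe. The cause was not tested.

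Over all 20328 tested probes, 233 were called lower and 299 higher as reported, 758 and 792 with normexp, 9005 and 505 with spike-in scaling, 1736 and 1347 with the trend, and 2231 (11.0%) and 1884 by the unadjusted t-test. With the replicate block the counts were 0 and 0, with 4400 at an unadjusted limma p under 0.05. They were also 0 and 0 by the adjusted t-test, without a signal filter and with a filter on at least 1 array. In these settings no call of a member or pathway probe could be made. Leaving out 1 array gave 0 to 240 lower and 0 to 55 higher. An analysis with the slide as a block was not run, since all arrays share 1 slide. The replicate numbers of the labels run from 1 to 2 in both groups, and the pairing they would give is not borne out by the arrays (correlation 0.03). Dim probes limit what can be read: 2 of the 4 SCD5 probes lacked a measurable level.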

Other observations

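Genes beside SCD5 were read from the probes within 250 kb of the stretch its 4 probes span on chromosome 4, leaving out SCD5 itself. Of 12 such probes 9 were tested. Limma called 0 of the 9, beside 1.15% called lower and 1.47% called higher of all tested probes, so the count is near the whole-array share. Their log2 differences ran from -0.04 to 0.14, and the lowest adjusted p was 0.184, for SEC31A, a coat protein of vesicles that leave the endoplasmic reticulum.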
